A study of Homo sapiens with 16 samples.

Results

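RPMI-8226 is a human multiple myeloma cell line, that is, a line of malignant plasma cells. The comparison described here is of RPMI-8226 cells given GSK126 + UNC0638, each at 1 μM for 6 days, with RPMI-8226 cells given GSK126 alone at 1 μM for 6 days, and it asks what inhibition of G9a adds once EZH2 is inhibited. The members were chosen by the labels, and they are 4 of the 16 arrays of the series, 2 biological replicates with GSK126 + UNC0638 and 2 with GSK126. The other arrays used are the 4 of RPMI-8226 cells given DMSO, the solvent, or UNC0638 alone at 1 μM, and the 8 of MM.1S, another myeloma line, given the same treatments. Both compared groups carry the EZH2 inhibitor, so a change with GSK126 itself is not part of the difference.

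EZH2 is the enzyme of Polycomb repressive complex 2 that methylates lysine 27 of histone H3, and GSK126 blocks its activity. G9a, encoded by EHMT2, works with its partner GLP, encoded by EHMT1, to methylate lysine 9 of histone H3, and UNC0638 blocks both. Both marks are found at silent genes, among them genes of other lineages and of the germline. Both drugs inhibit an enzyme, so the mRNA of their targets does not report whether they acted.

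Each RNA sample was hybridized to its own 1-color array, and every value below is the log2 intensity of a probe minus the 75th percentile of its array, so that 0 is the brightness of that percentile and a difference of 1 is 2-fold. Tested were the 22500 of 50599 probes with signal well over background on the 2 arrays with GSK126 or on the 2 with GSK126 + UNC0638, over 15702 gene symbols. Between 46.5% and 49.7% of the spots of an RPMI-8226 array were well above background, the lowest on GSK126 replicate 1, which also had the lowest 75th percentile (256 against 299 to 349 on the other 7). Levels of different probes are not compared as amounts of RNA, and fewer expressing cells cannot be told apart from less RNA per cell. A probe was called when limma gave an adjusted p under 0.05 in 1 fit over the 8 RPMI-8226 arrays.

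Plasma cell genes marked these arrays, while genes of earlier B cells ranged from bright to below background. SDC1, XBP1, IGJ and the brighter MZB1 probe lay between 4.19 and 6.81 on all 4 compared arrays. PAX5, which defines earlier B cells, was not well above background on both arrays of either group. With GSK126 the B cell genes CD72, CD79A and BLK were at 5.58 and 4.59, at 3.0 and 1.95 and at 2.28 and 2.17, while the surface gene MS4A1 was at -3.41 and -4.06, above background on 1 array, CIITA at -1.91 and -1.90 and BCL6 at -1.21 and -0.86.

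limma did not call the mRNA of the drug targets. EZH2 was at 2.62 and 2.77 with GSK126 and at 2.56 and 2.67 with the combination, a difference of -0.08 (SE 0.14, limma adjusted p = 0.776). EHMT2 was at 1.31 and 0.75 with GSK126 and at 0.48 and 0.64 with the combination (difference -0.47, SE 0.22, limma adjusted p = 0.316), so both combination arrays were below both GSK126 arrays. None of the 3 EHMT1 probes was called, with differences from -0.36 to 0.08 and limma adjusted p from 0.404 to 0.802.

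More probes were called higher than lower when UNC0638 was added to GSK126. limma called 488 probes higher (2.17% of those tested) and 153 lower (0.68%), which makes 76.1% of the calls rises. In each of the 641 both combination arrays lay on the same side of both GSK126 arrays. Of all genes, taken by 1 probe each, they lay above in 22.7% and below in 28.9%. The same values made the calls, so this is no further support for them. Of the rises, 267 were not well above background on either GSK126 array, 36 were above it on 1 and 185 on both. The 267 passed the filter only through the combination arrays. Of the probes tested, 611 were above background on neither GSK126 array and 186 on neither combination array, so the filter left more room for rises. Fitted only to probes above background on all 4 compared arrays, limma called 141 higher and 56 lower. For these 267 a fold change is a lower bound, which sets the mean with the combination against the lowest signal well above background, or against the probe's signal with GSK126 where that was larger, and the bound passed 2-fold in 196 and 4-fold in 79. Falls were mostly of genes that stayed measurable, since 111 of the 153 were above background on all 4 arrays and 32 on neither combination array. The median of the calls was 2.64 for rises and -1.22 for falls, against -0.07 over all probes tested. Calls aside, of the 15702 genes, taken by 1 probe each, 8819 were below 0 and 6883 above. Probes of uncharacterized loci (symbols starting LOC, XLOC or LINC) made up 21.3% of the rises and 18.3% of the falls, against 13.4% of the probes tested.

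The size of the change exceeded the noise of the arrays, but the number of calls depended on single arrays. The SD of the difference over the probes tested was 0.66, and the spread between replicates by itself gives 0.32. For the probes above background on all 4 compared arrays these were 0.45 and 0.28. Without combination replicate 1 limma called 198 probes higher and 27 lower, without GSK126 replicate 1 it called 253 and 23, and without UNC0638 replicate 1 or 2 it called 84 lower. Same-numbered arrays deviated together, and with the replicate number as a block limma called 950 probes higher and 446 lower, including every one of the 488 and 153. More than 2-fold apart, without a test, were 1143 probes higher (5.08%) and 401 lower (1.78%).

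The rises that could be measured on all 4 compared arrays were led by HULC, a long noncoding RNA first described in liver cancer (chr6:8653917-8653976, GRCh37). HULC was at -2.84 and -3.35 with GSK126 and at 3.15 and 1.90 with the combination, a difference of 5.62 (SE 0.47, limma adjusted p = 0.00256). With DMSO it was at -5.53 and -6.29, below the detection limit, and with UNC0638 alone at -3.33 and -3.94. HULC was thus high on the 2 combination arrays and on no other RPMI-8226 array.

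S100A8 and S100A9, which encode the subunits of calprotectin, a calcium-binding protein of neutrophils and monocytes, lie next to each other on chromosome 1 and rose together. S100A8 (chr1:153362548-153362607) went from -2.50 and -3.92 with GSK126 to 2.87 and 0.72 with the combination (5.01, SE 0.82, limma adjusted p = 0.0289). S100A9 went from -2.78 and -4.00 to 1.59 and 0.10 (4.23, SE 0.61, limma adjusted p = 0.0176). In both genes combination replicate 1 was the higher, and the groups did not overlap. The S100A8 call was lost without either GSK126 array or combination replicate 1 and the S100A9 call without GSK126 replicate 2 or combination replicate 1. Over their alternatives the adjusted p reached 0.117 for S100A8 and 0.0855 for S100A9.

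Other leading rises were of genes used in muscle, T cells and oocytes. CD3G, a subunit of the T cell receptor complex, went from -1.37 and -1.92 with GSK126 to 2.95 and 2.68 with the combination (4.46, SE 0.34, limma adjusted p = 0.0019). MYL1, a myosin light chain of fast skeletal muscle, went from -3.92 and -3.82 to 0.58 and 0.48 (4.40, SE 0.31, limma adjusted p = 0.00169). ZP4, a protein of the egg coat, went from -2.79 and -3.35 to 1.92 and 0.28 (4.17, limma adjusted p = 0.0308), a call lost without any of 3 of the 4 compared arrays (GSK126 replicate 1 or 2 or combination replicate 1, with an adjusted p of up to 0.143 over its alternatives). LOC100505495 rose by 4.14 (SE 0.20, limma adjusted p = 3.89e-04).

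Among rises from below background, the largest bounds were those of HBG1, the fetal γ-globin gene (at least 34.8-fold), FCRLA, an Fc receptor-like protein of B cells (at least 24.6-fold), SLN, the sarcolipin of muscle (at least 21.9-fold), ITLN1, a lectin of the intestine (at least 21.5-fold), and FGFBP1, which binds fibroblast growth factors (at least 15.1-fold). SLN was between -5.15 and -6.18 on the 6 arrays without both drugs and at 0.66 and -0.12 on the combination arrays. The SLN and ITLN1 calls held in every alternative run that tested them, which the filter for all compared arrays did not. HBG1 was at 2.31 and -0.44 on the combination arrays, and its call was lost without either GSK126 array (limma adjusted p = 0.018, and up to 0.0744 over its alternatives). A further HBG1 probe, above background on all 8 arrays, differed by 3.54, or 11.6-fold (0.0581 without the replicate block and 0.0174 with it). FCRLA was at -0.15 and 1.12, and its call was lost without any 1 of the 4 compared arrays (limma adjusted p = 0.0363, and up to 0.191), and its further probe differed by 5.01 (0.0548 without the block and 6.02e-04 with it). FGFBP1 lost its call without combination replicate 1 (limma adjusted p = 0.00994, and up to 0.0776).

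**Figure D1:**
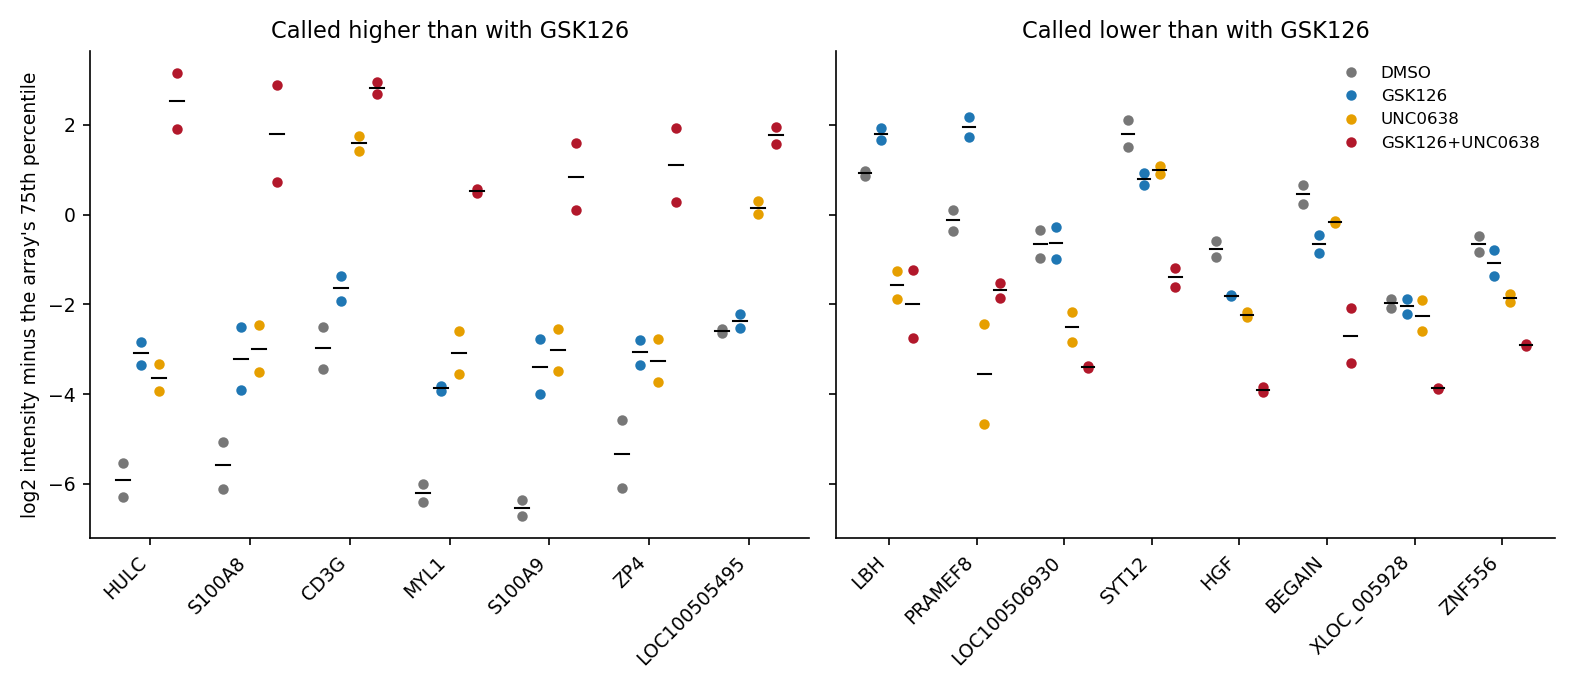
Log2 intensity minus the array's 75th percentile on the 8 RPMI-8226 arrays, for 7 of the genes with the largest called rises (left) and the 8 with the largest called falls (right) among probes above background on all 4 compared arrays. Each point is an array and each black line the mean of 2. Only genes in which both red points (GSK126 + UNC0638) lie on one side of both blue points (GSK126) could be chosen.

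The fall that led was that of LBH, a transcription cofactor of limb bud and heart development (chr2:30480566-30480625). LBH was at 1.67 and 1.92 with GSK126, above the 0.87 and 0.98 with DMSO, and at -2.75 and -1.24 with the combination (difference -3.79, SE 0.47, limma adjusted p = 0.0103). A brighter LBH probe fell by 3.52 (limma adjusted p = 0.00699), and a dimmer one differed by -4.50 (0.0572, and 0.0174 with the block). The call of the first was lost without either GSK126 array, with an adjusted p of up to 0.0627.

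HGF, the hepatocyte growth factor, a secreted ligand of the MET receptor that many myeloma cells make, fell at both probes that were called. At the leading one it was at -1.82 and -1.80 with GSK126 and at -3.84 and -3.96 with the combination (-2.09, SE 0.16, limma adjusted p = 0.00201), and at the other it fell by 1.41 (limma adjusted p = 0.00906). The call at the leading probe held in every alternative run. SYT12, a synaptotagmin of vesicle membranes, fell from 0.93 and 0.66 to -1.61 and -1.19 (-2.20, SE 0.25, limma adjusted p = 0.00843, lost without GSK126 replicate 1 or combination replicate 1 at up to 0.0604). BEGAIN, a brain guanylate kinase-associated protein, fell from -0.85 and -0.46 to -3.32 and -2.09, a call lost without any array but combination replicate 2 (limma adjusted p = 0.0484, and up to 0.153).

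The other leading falls were ZNF556, a zinc finger gene (-1.83), XLOC_005928 (-1.83), LOC100506930 (-2.77, called at 3 of 8 probes, which ranged from -0.28 to -2.77) and PRAMEF8 (-3.64). The XLOC_005928 and LOC100506930 calls were lost without GSK126 replicate 1 or either combination array (limma adjusted p = 0.0141 and 0.0102, and up to 0.0948 and 0.0742). PRAMEF8 and PRAMEF7, which fell at least 9.41-fold, belong to a family of near-identical copies on chromosome 1, so their probes may share signal. PRAMEF8 was lower on both combination arrays (-1.52 and -1.86) than on both GSK126 arrays (2.17 and 1.73), and its call was lost without any DMSO, GSK126 or combination array (limma adjusted p = 0.0406, and up to 0.197). That of PRAMEF7 was lost without GSK126 replicate 1 or combination replicate 1 (up to 0.0737). Of the falls to below background, CDC14C fell at least 4.93-fold, ZIK1, a zinc finger gene of chromosome 19, at least 4.74-fold, CDC14B at least 3.73-fold and LOC643201 at least 2.68-fold. Of these the ZIK1 call held in every alternative that tested it, and that of CDC14C was lost without combination replicate 1 (adjusted p up to 0.0512). The CDC14B and LOC643201 calls were each lost without GSK126 replicate 1 or 2 and with normexp background correction (adjusted p up to 0.0828 and 0.118), the former also without combination replicate 1 and the latter without a filter and with only the 4 compared arrays in the fit. The other CDC14C probes, at -0.46 and -1.43, were not called.

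Interferon-stimulated genes answer type I interferon through a complex of transcription factors that includes IRF9 and binds a promoter element known as the ISRE. A list of 60 such genes was described because the study followed interferon signaling in treated cells. In these cells 52 were tested, and limma called 0 higher and 1 lower, with 13 higher and 4 lower at an unadjusted p under 0.05. Over all 15702 genes, taken by 1 probe each, 2.48% were called higher and 0.694% lower. At an unadjusted p under 0.05, 1540 of the 15702 were higher and 1483 lower. The counts of every list below stand beside these. The replicate block gave 4 higher and 2 lower among the 52, against 4.8% and 1.99% of all genes. A fit over 16 arrays gave 9 and 2 and normexp background correction 3 and 2. The median of the list was 0.37 against -0.05 over all genes tested, 38 of 52 were above 0, and in 24 both combination arrays exceeded both GSK126 arrays, as in 22.7% of all genes. The median depended on GSK126 replicate 1, at 0.54 without it and 0.15 without GSK126 replicate 2, and it was 0.03 between the arrays numbered 1 and 0.57 between those numbered 2. The list's median with GSK126 over DMSO was 0.57 and with UNC0638 over DMSO 0.08. The former shares its GSK126 arrays with the difference described here.

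The ISRE sequences below are shown because these 6 interferon genes carry them while their changes differed. The letters searched were GAAA, then 2 bases of any kind, then GAAA again, on both strands, in RefSeq promoters of GRCh38.p14 from 250 bases before to 50 after the start. A promoter was found for 9354 of the 15702 genes, and 3.04% of these and 3.65% of all 27305 promoters of the table held a match. In the list 28 of 39 promoters did (71.8%), of the genes called higher 13 of 215 (6.05%) and of those called lower 3 of 54 (5.56%). Capitals mark the match, read 5′ to 3′ along the gene's strand.
CXCL10 (chr4:76023699-76023728, minus strand): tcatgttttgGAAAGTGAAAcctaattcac
CXCL9 (chr4:76007661-76007690, minus strand): ccatttatgtGAAATGGAAAtaaaaacatg
IFITM1 (chr11:313990-314019, plus strand): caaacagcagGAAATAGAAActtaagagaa
IFIT1 (chr10:89392497-89392526, plus strand): ctagctttagTTTCACTTTCccctttcggt
OAS3 (chr12:112938321-112938350, plus strand): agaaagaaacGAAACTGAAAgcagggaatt
ISG15 (chr1:1013380-1013409, plus strand): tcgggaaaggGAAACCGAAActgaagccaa

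IFIT1, which binds viral RNA, was at 0.26 and -0.86 with GSK126 and at 0.95 and 1.60 with the combination (1.58, SE 0.42, limma adjusted p = 0.122). ISG15, a ubiquitin-like modifier, was at 3.76 and 3.22 and then at 4.01 and 4.29 (0.66, SE 0.22, limma adjusted p = 0.194). Both genes were higher on both combination arrays than on either GSK126 array, and neither was called. Among further genes of the pathway that the study named, OAS3, an activator of RNase L, gave 1.27 (limma adjusted p = 0.305), IFI6 1.10 (0.240) and the transcription factor IRF9 0.61 (0.145), none of them called. With DMSO, IFIT1 was at -1.85 and -1.23 and ISG15 at 2.48 and 2.72, below every GSK126 array.

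The single call of the list was a fall, of IFITM1, a membrane protein that restricts viral entry. IFITM1 was at 6.21 and 5.74 with GSK126 and at 4.46 and 4.99 with the combination (-1.25, SE 0.23, limma adjusted p = 0.0456), and a further probe fell by 1.17 (limma adjusted p = 0.0455). With UNC0638 alone it was at 4.85 and 4.97, below the 5.67 and 5.81 with DMSO. The call was lost under 13 alternatives, among them quantile normalization and the omission of any array but combination replicate 2, with an adjusted p of up to 0.207. Among 24 tested sensors and regulators of the interferon pathway TLR7, a receptor for single-stranded RNA, was the 1 call (2.48% of all genes were called higher). It rose at least 14.4-fold, from -4.40 and -4.52 to 0.10 and -0.77 (limma adjusted p = 0.00795, lost without GSK126 replicate 1 or combination replicate 1 at up to 0.0553). The median of the 24 was 0.05.

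Of 40 interferon gamma and antigen presentation genes tested, limma called 4 higher and 0 lower (2.48% and 0.694% of all genes). At an unadjusted p under 0.05 were 7 and 4 of the 40, and 1540 and 1483 of all 15702 genes. The replicate block called 6 and 1, and the median was -0.01, or 0.10 with quantile normalization. The chemokines CXCL10 and CXCL9, which attract T cells, are neighbors on chromosome 4. CXCL10 rose from 0.14 and -0.12 to 2.22 and 2.14 (2.17, SE 0.22, limma adjusted p = 0.00506), a call that held in every alternative. CXCL9 rose from 0.68 and 1.19 to 2.16 and 2.79 (1.54, SE 0.26, limma adjusted p = 0.0329), and this call was lost without 1 of 6 arrays (DMSO or UNC0638 replicate 1 or 2, GSK126 replicate 1, combination replicate 2), at up to 0.152 over its alternatives. UBD, a ubiquitin-like modifier of immune cells, rose from -3.33 and -3.50 to 0.11 and -0.10 (3.42, SE 0.28, limma adjusted p = 0.00246). HLA-DQA1, an MHC class II chain, rose at least 3.77-fold (limma adjusted p = 0.00841, 0.0572 with normexp background correction, and also lost without GSK126 replicate 1), and its further probe differed by 2.20 (0.0547, and 0.0285 with the block).

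IRF4, the transcription factor on which plasma cells and myeloma cells depend, fell when UNC0638 was added. IRF4 (chr6:411002-411061) was at 2.41 and 2.47 with GSK126 and at 0.85 and 1.16 with the combination (-1.44, SE 0.18, limma adjusted p = 0.0116). With DMSO it was at 2.89 and 2.52 and with UNC0638 alone at 2.35 and 2.21, so that only the combination arrays were below 2. The call was lost without either GSK126 array or combination replicate 1, at up to 0.0827. On a list of 29 tested plasma cell identity genes limma called 1 higher and 1 lower (2.48% and 0.694% of all genes). The median was -0.36, or -0.18 without combination replicate 1, with 22 of 29 below 0.

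The call upward in that list was SLAMF7, a surface receptor of plasma cells and NK cells, which went from -1.73 and -1.88 to 2.82 and 1.84 (4.13, SE 0.42, limma adjusted p = 0.00507). With the replicate block the list gave 1 call higher and 5 lower (4.8% and 1.99% of all genes). The added falls included the transcription factor KLF2 (-1.25, limma adjusted p = 0.392, and 0.00842 with the block), the surface enzyme CD38 (-1.11, 0.434 and 0.0104) and TNFRSF17, the receptor known as BCMA (-1.53, 0.130 and 0.0408). CD38 was at 2.79 and 4.01 with GSK126 and at 1.58 and 3.0 with the combination, so its groups overlapped while each same-numbered pair fell. SDC1 (-0.47), XBP1 (-0.04) and IGJ (-0.04) were not called with or without the block, nor was PRDM1, at -0.51 and 0.00 in its 2 probes.

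The list of 25 tested B cell genes also holds Fc receptors and CD83. Of these 25, limma called 5 higher and 0 lower, against 2.48% and 0.694% of all genes, and 8 and 0 with the block. In all 18 were above 0 and 7 below, and the median was 0.67, or 0.31 without GSK126 replicate 1 and 0.33 with normexp. MS4A1, which encodes CD20, rose from -3.41 and -4.06 to 0.24 and -0.81 (3.45, SE 0.39, limma adjusted p = 0.00795). FCGR2C, an Fc receptor, rose from -2.66 and -2.46 to -0.78 and -0.56 (1.89, SE 0.20, limma adjusted p = 0.00634). The MS4A1 and FCGR2C calls held in every alternative that tested them, and the filter for all compared arrays left out MS4A1. CD83, an activation marker, rose by 2.41 (limma adjusted p = 0.0217, lost without any 1 of the 4 compared arrays at up to 0.128), and FCRL3, an Fc receptor-like protein, at least 3.46-fold (0.0115, lost without either GSK126 array or combination replicate 1 at up to 0.0869). The remaining call was FCGR2A, another Fc receptor (1.84, limma adjusted p = 0.0189). BCL6 and CIITA were not called (0.45 and -0.09), nor was CD79A (0.17). Also below 0 and not called were BLNK (-0.07), VPREB3 (-0.09), FCER2 (-0.18), BLK (-0.21), CD72 (-0.33) and TCL1A (-0.37). The Fc receptor probes may share signal with near-identical copies.

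**Figure D2:**
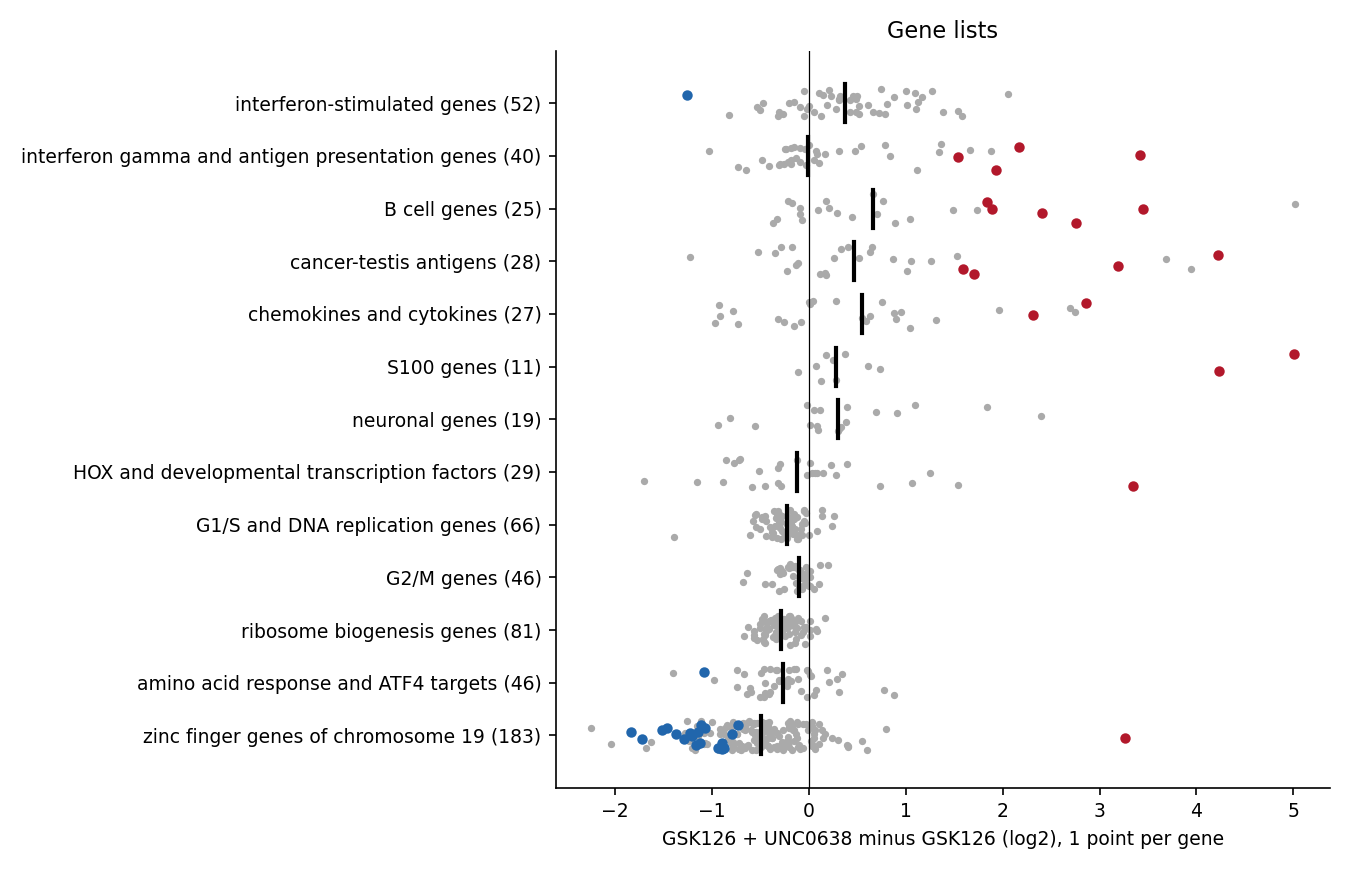
Differences between GSK126 + UNC0638 and GSK126 in RPMI-8226 cells for the tested genes of 13 lists, with 1 point per gene (log2, number tested in brackets). Red points were called higher, blue points called lower and gray points not called, and black bars are medians, which run from -0.49 for zinc finger genes of chromosome 19 to 0.67 for B cell genes.

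Cancer-testis antigens are silent in most adult tissues outside the germline, and many lie on the X chromosome. Of 28 tested, limma called 4 higher and 0 lower (2.48% and 0.694% of all genes), and the block called 12 and 0 (4.8% and 1.99%). The median was 0.47, or 0.27 without combination replicate 2. SSX1 was at -6.13 and -6.36 with GSK126 and at -1.69 and -2.35 with the combination, a rise of at least 4.49-fold (limma adjusted p = 0.0018). XAGE3 rose at least 2.90-fold, from -5.74 and -5.94 to -2.69 and -2.60 (limma adjusted p = 7.29e-04). Both were below background on all 6 arrays without both drugs. PAGE2B rose by 1.71 (limma adjusted p = 0.00635) and PAGE2 by 1.59 (0.0153, lost without GSK126 replicate 1 or either combination array, at up to 0.0804). These genes have near-identical copies, so each probe may report more than 1 of them.

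Few other genes of the germline or of development were called. Over all genes 2.48% were called higher and 0.694% lower, and 4.8% and 1.99% with the block. Of 18 germline and meiosis genes 1 was lower, TEX19, which acts on transposons in germ cells (-1.26, limma adjusted p = 0.0309, lost without any 1 of 5 arrays, DMSO or GSK126 replicate 1 or 2 or combination replicate 1, at up to 0.143). Of 29 HOX and developmental transcription factors 1 was higher, TBX15 (at least 4.07-fold, limma adjusted p = 0.011, lost without combination replicate 1 at up to 0.0855), and the median was -0.12. TBX15 was at -1.59 and -1.39 with UNC0638 alone and at -2.00 and -2.32 with the combination. Of 19 neuronal genes 0 were called, and 3 higher and 1 lower with the block. At an unadjusted p under 0.05 were 4 higher and 2 lower of the 19, and 1540 and 1483 of all 15702 genes. Of 21 imprinted genes 1 was higher, TFPI2, an inhibitor of serine proteases (3.66, limma adjusted p = 0.0122, lost without either combination array at up to 0.0861).

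Markers of other blood and tissue lineages were among the rises. Of 13 T and NK cell markers tested 4 were called higher and 0 lower, with a median of 0.69, and of 13 myeloid markers 3 and 0, with a median of 0.94, where 2.48% and 0.694% of all genes were called. The medians were 0.41 and 0.53 with normexp, and the latter 0.13 with the filter for all compared arrays. The T and NK calls were CD3G, CD3E (at least 5.87-fold), CD3D (2.85) and NKG7, a granule protein (at least 3.84-fold). Below 0 were CD8B (-0.23), CD4 (-0.36), ZAP70 (-0.57) and CD7 (-1.13), each lower on both combination arrays than on both GSK126 arrays and none of them called. The NKG7 call was lost without any 1 array, where its adjusted p reached 0.203. The CD3D call was lost without combination replicate 1 (up to 0.0559). The myeloid calls were S100A8, S100A9 and MS4A7, a membrane protein of macrophages (at least 6.22-fold, limma adjusted p = 0.034, lost without any DMSO, UNC0638 or combination array at up to 0.189). Of 13 epithelial, stromal and endothelial markers LUM and COL1A2, which encode proteins of the collagen matrix, were called higher (at least 2.30-fold and 2.76-fold), both calls lost with normexp background correction at 0.131 and 0.0572.

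Summed over the whole marker lists on the linear scale, as multiples of each array's 75th percentile, the levels did not rise with every list. Such a sum follows its brightest members, so it does not show whether dim markers rose. The 20 T and NK markers summed to 129 to 154 with GSK126 and 133 to 140 with the combination, with 11 and 13 markers above background. The 19 myeloid markers rose from 14.5 to 19.8 with GSK126 to 28.6 to 36.3, with 10 to 11 and 13 above background. The 23 epithelial and stromal markers summed to 119 to 124 and then to 108 to 112, with 10 to 11 and 12 to 15 above background. Of these lists 13 of 20, 13 of 19 and 13 of 23 markers were tested. The others were not well above background on both arrays of either group. They include LCK, CD5 and PRF1 of T and NK cells and MPO and ELANE of myeloid cells. CDH1, COL1A1 and PECAM1 of epithelium, stroma and endothelium are also among them. Called higher, as given above, were CD3D, CD3E, CD3G and NKG7, S100A8, S100A9 and MS4A7, and LUM and COL1A2. The part of such cells in these results was not tested.

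Globin genes, which erythroid cells express, split by chromosome. Of 6 tested, HBB (at least 6.71-fold) and HBD (2.28), both of the β-globin cluster, were called higher and HBA2 of the α-globin cluster lower. Over all genes 2.48% were called higher and 0.694% lower. HBA2, which was well above background in DMSO at 2.99 and 3.08, was at 3.65 and 3.61 with GSK126 and at 1.5 and 2.11 with the combination (-1.83, SE 0.23, limma adjusted p = 0.0115), and 2 further probes fell by 1.64 and 1.70. The HBB call (limma adjusted p = 0.0359) was lost without any DMSO, GSK126 or UNC0638 array (up to 0.114), that of HBD (0.0176) without either GSK126 array or combination replicate 1 (up to 0.0682) and that of HBA2 without either GSK126 array (up to 0.0746). The 19 erythroid and megakaryocyte markers, which hold globin genes, summed to 45.5 to 59.2 with GSK126 and 37.9 to 46.1 with the combination. Of 7 tested, 1 was called higher and 1 lower. This sum follows its brightest member, TFRC, at 5.49 and 5.00 with GSK126 and at 5.35 and 5.01 with the combination. Of 27 chemokines and cytokines CXCL6, a neutrophil attractant, rose by 2.32 (limma adjusted p = 0.00188) in every alternative, and CCL4 at least 6.98-fold (0.0309, lost without any array but combination replicate 2 at up to 0.104). Of the 27, 2 were thus called, where 2.48% of all genes were called higher, and the block called 7 higher and 1 lower. Their median was 0.55, or 0.31 without combination replicate 1, 0.22 with normexp and 0.17 with the filter for all compared arrays.

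Rises often lay next to each other in the genome, a view chosen after the data were seen and given without a test. Of 335 genes called higher, leaving out uncharacterized loci, 57 (17.0%) had another gene called higher within 100 kb, against 3.56% of the 13285 genes tested. For falls these shares were 12.8% of 109 and 2.08%. At least 3 neighbors were called higher in 6 regions, at chr1:152958192-153112700, chr1:160724402-160846425, chr10:5147789-5246455, chr11:5246718-5269593, chr11:118186314-118223990 and chr19:55317688-55378143 (GRCh37). Each gene of such a region was tested by its own probe, but families of near-identical copies may share signal.

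The first region holds SPRR1A, SPRR2A, SPRR2F and SPRR2C, small proline-rich proteins of the skin barrier, called among 7 genes tested there. SPRR2A was at -5.31 and -6.59 with GSK126 and at -0.66 and -1.51 with the combination, at least 8.58-fold higher (limma adjusted p = 0.00337). SPRR1A and SPRR2A were above background on the combination arrays only. SPRR2F and SPRR2C, measured in all 4 groups, gave 1.49 and 1.52 with GSK126 present and -0.13 and -0.26 without it, which limma did not call unequal (adjusted p = 0.221 and 0.225). In the second region SLAMF7, LY9 and CD244, all receptors of the SLAM family, and the lectin gene ITLN1 were each called, 4 of 4 tested. CD244 was below background on all 6 arrays without both drugs and at -3.05 and -3.81 with them (at least 1.69-fold).

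In the chromosome 10 region AKR1C3, AKR1C4 and AKR1CL1, of a family of enzymes that reduce steroids and prostaglandins, were called, 3 of 3 tested. AKR1C3 was at 0.88 and 1.07 with GSK126, at 4.70 and 3.56 with the combination and at 3.74 and 3.81 with UNC0638 alone. Here the rise over GSK126 (3.09 to 3.50) and that of UNC0638 over DMSO (2.65 to 2.92) were of like size, and GSK126 arrays lay close to DMSO. Of the CD3 genes on chromosome 11, CD3D and CD3G were measured in all 4 groups and gave 2.85 and 4.46 with GSK126 and 2.19 and 4.56 without it, while CD3E was below background with DMSO and with GSK126. KIR2DL4, KIR3DL1 and KIR3DL2, receptors of NK cells on chromosome 19, were below background with DMSO. In the β-globin cluster the called probes of HBB, HBG1, HBD and the pseudogene HBBP1 were below background with DMSO. With UNC0638 alone those of HBD and HBBP1 were above it on both arrays and the others on neither. With the combination HBB, HBG1, HBD and HBBP1, the 4 genes tested in this region, were called higher at these probes. The further HBG1 probe, above background on all 8 arrays, was not called (3.54, limma adjusted p = 0.0581).

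**Figure D3:**
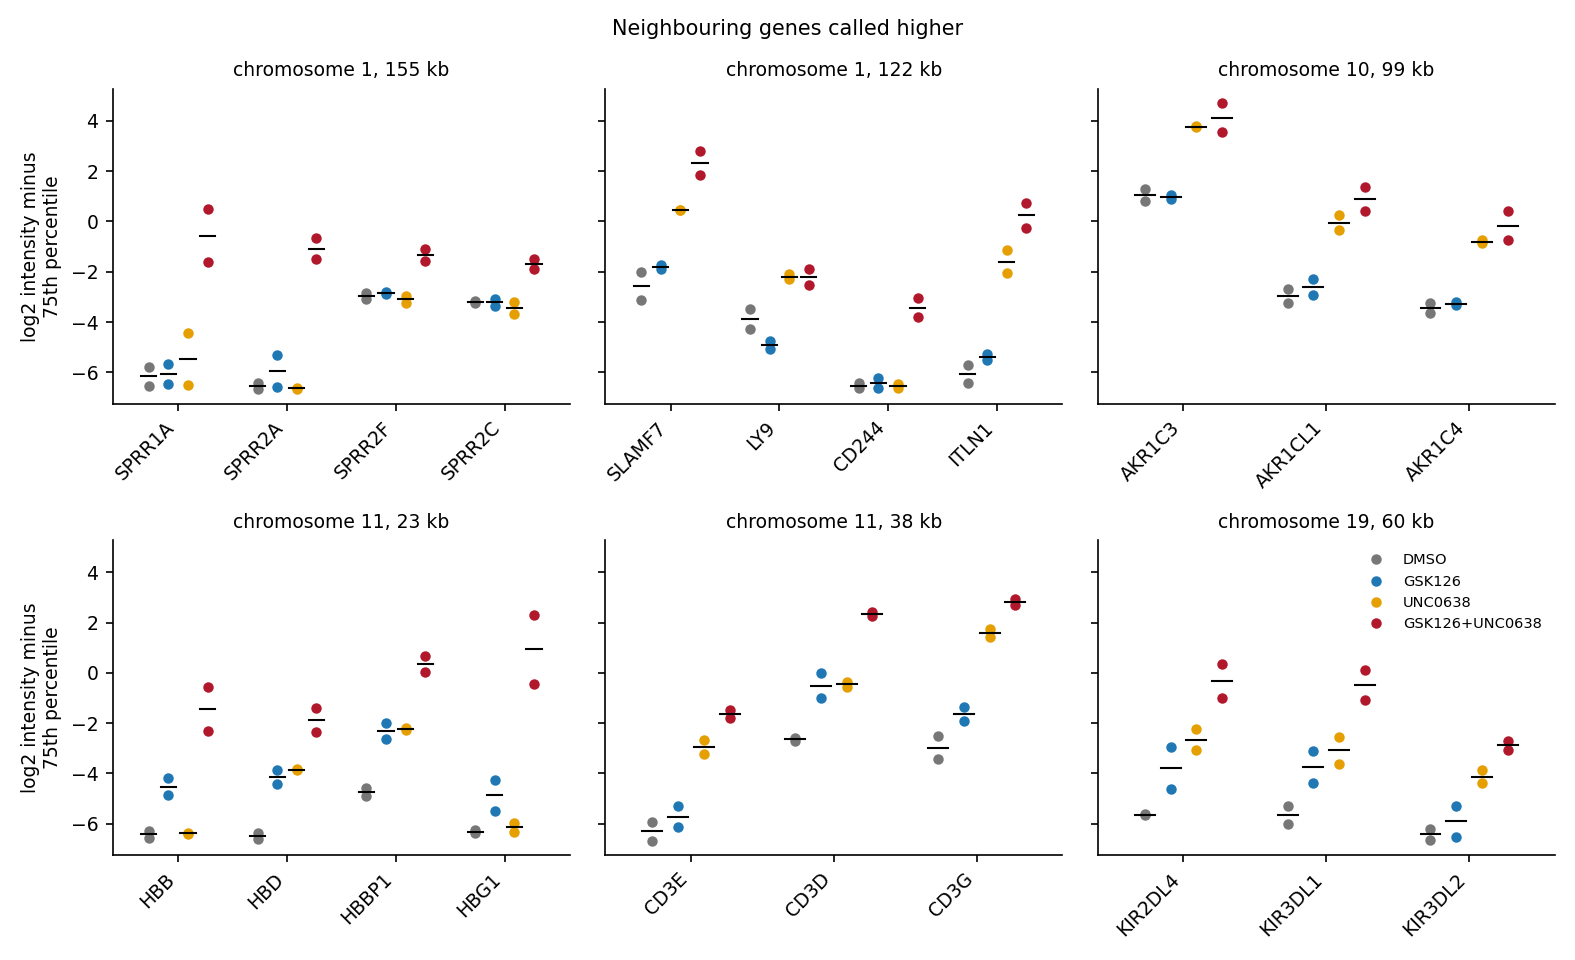
Levels on the 8 RPMI-8226 arrays (log2 intensity minus the array's 75th percentile) of the genes called higher in the 6 regions with at least 3 such neighbors, in order of position. Points are arrays and black lines group means. The red points lie above the blue points in every gene, as in every rise called. The orange points (UNC0638) lie near the red ones for AKR1C genes and near the gray ones (DMSO) for SPRR genes.

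Falls gathered on chromosome 19. Of 1383 probes tested there 42 were called lower (3.04%) and 18 higher (1.30%), and the next share of falls was 1.43%, on chromosome 7. Zinc finger genes, whose proteins bind DNA and in many cases recruit the KAP1 complex that silences transposons, lie in clusters on this chromosome. Over all genes 0.694% were called lower and 2.48% higher, and 1.99% and 4.8% with the block. Of 183 zinc finger genes tested, 160 were below 0, 20 were called lower and 1 higher, and 51 and 1 with the block. The median was -0.49, between -0.33 and -0.55 under every scaling and background correction tried, and in 127 of the 183 both combination arrays were below both GSK126 arrays, as in 28.9% of all genes. The number called lower was 2 to 15 when 1 array was left out and 7 with only the 4 arrays compared in the fit. The list's median for UNC0638 over DMSO, which shares no array with this difference, was -0.52, and for MM.1S cells -0.34.

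ZNF556 was at -1.36 and -0.80 with GSK126 and at -2.93 and -2.88 with the combination (-1.83, SE 0.23, limma adjusted p = 0.0103, lost without either combination array at up to 0.0776). ZNF880 went from -2.13 and -2.13 to -3.60 and -4.09 (-1.72, limma adjusted p = 0.0243, lost without any 1 of the 4 compared arrays at up to 0.124). ZNF256 went from -0.02 and -0.51 to -1.5 and -2.06 (-1.51, limma adjusted p = 0.0379), and its call was lost without any 1 array (up to 0.179). In these genes the groups did not overlap, and the arrays with UNC0638 alone lay below those with DMSO. The 1 zinc finger gene called higher was ZNF541, a testis gene, at least 4.26-fold (limma adjusted p = 0.0026).

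**Figure D4:**
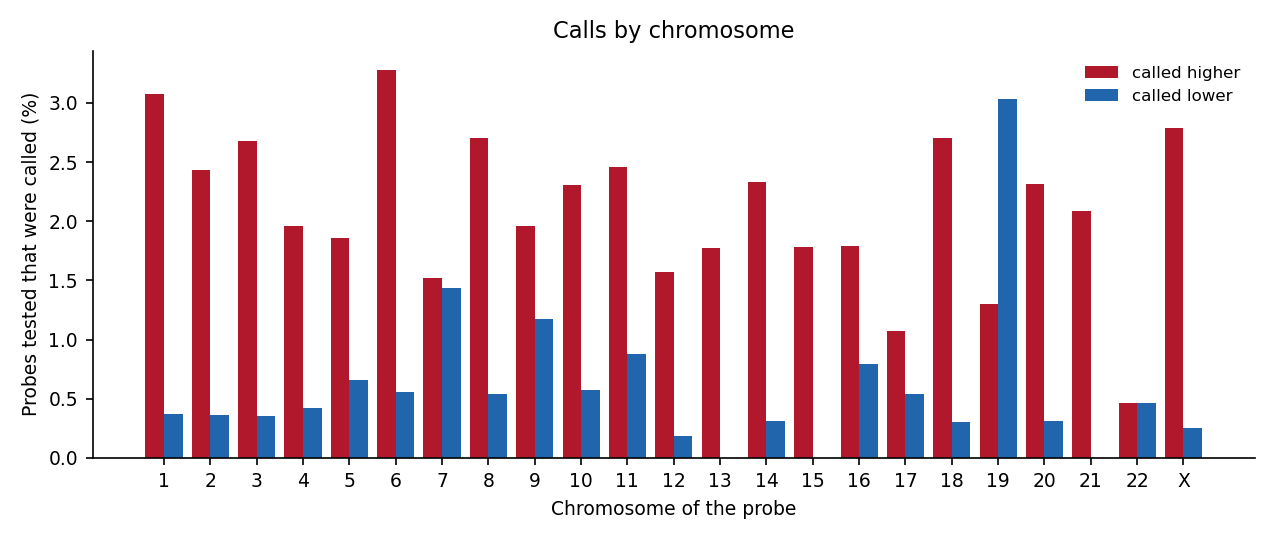
Share of the probes tested on each chromosome (%) that were called higher (red) or lower (blue) with GSK126 + UNC0638 than with GSK126 in RPMI-8226 cells. Chromosome 19 has the highest bar of falls, at 3.04%, and chromosomes 6 and 1 the highest bars of rises, at 3.28% and 3.08%.

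Genes of growth and division shifted slightly and were not called in the main fit. Beside the unadjusted counts given here, 1540 of all 15702 genes were higher and 1483 lower at an unadjusted p under 0.05. Of 66 G1/S and DNA replication genes 60 were below 0, with a median of -0.22, and limma called 0, with 0 higher and 12 lower at an unadjusted p under 0.05. CCND1, which encodes cyclin D1, was at -0.77 and -1.0 with GSK126 and at -2.67 and -1.87 with the combination (-1.39, SE 0.27, limma adjusted p = 0.0512, and 0.0343 with the block, the 1 call of the list there). Of 81 ribosome biogenesis genes 75 were below 0, with a median of -0.29 and 0 called (18 lower at an unadjusted p under 0.05, 0 with the block). Left out 1 at a time, the arrays gave medians of -0.33 to -0.16 for the former list and -0.42 to -0.15 for the latter, the smaller without combination replicate 1 in both. In 45 of the 66 and 54 of the 81 both combination arrays were below both GSK126 arrays, as in 28.9% of all genes. A fit over 16 arrays called 4 of the former and 6 of the latter lower, and 0 higher. Of 46 G2/M genes 38 were below 0 (median -0.10, 0 called, 3 lower unadjusted), and of 28 cholesterol synthesis genes 21 (median -0.15, 0 called, 1 higher unadjusted). Lists of 30 CDK inhibitors and p53 targets and 35 BCL2 family and death receptor genes also held 0 calls, with medians of 0.09 and 0.07. With 1 array left out these ran from 0.03 to 0.17 and from -0.02 to 0.10, and with the percentile over detected probes they were 0.19 and 0.16. At an unadjusted p under 0.05 the former held 2 higher and 1 lower and the latter 3 higher and 2 lower.

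ASS1, which makes argininosuccinate in the synthesis of arginine, was the 1 call among 46 amino acid response genes (0.694% of all genes were called lower). It went from 4.33 and 4.6 with GSK126 to 3.29 and 3.49 with the combination (-1.08, SE 0.16, limma adjusted p = 0.018), and its further probe fell by 1.24 (limma adjusted p = 0.0105). The former call was lost without GSK126 replicate 2 or either combination array, without a filter and in the fits over 16 and 4 arrays, at up to 0.187. The median of the 46 was -0.27, and 35 were below 0. At an unadjusted p under 0.05 were 1540 higher and 1483 lower of all 15702 genes. Among the genes of the silencing machinery, 0 of 30 Polycomb genes and 0 of 37 genes of H3K9 methylation were called (1 higher, and 4 higher and 1 lower, at an unadjusted p under 0.05, and 0 with the block), with medians of -0.11 and -0.06. The latter turned to 0.03 with quantile normalization and to 0.04 with the percentile over detected probes. Of 16 genes from endogenous retroviruses 3 were tested, and 0 were called, at an unadjusted p too.

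Most of the probes called on top of GSK126 leaned the same way when UNC0638 was given without it. Of the 488 rises 420 were above 0 for UNC0638 over DMSO, as were 45.2% of all probes tested, with a median of 1.02 against 2.64, and limma called 123 of them there (0.609% of the probes tested were called higher). Of the 153 falls 149 were below 0, with a median of -0.67 against -1.22, and 11 were called (0.0889%). The first of each pair of medians comes from the arrays that did not choose the probes, and a median of probes chosen by their own size is larger for that reason alone. These medians include levels below background. The 2 differences share no array, and across the 22500 probes, which are not independent replicates, they correlated with r = 0.66.

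Tested directly as a difference of differences, limma called 39 probes with a larger change in the presence of GSK126 (0.173%) and 1 with a more negative one (0.00444%), LOC100288524, with 944 at an unadjusted p under 0.05. All 39 were among the 488 rises. Of the 39, 38 were well above background on both combination arrays and on none of the other 6. These 38 passed the filter only through the combination arrays, where they are high. In each of them 3 of the 4 group levels were not measured, so these calls do not show a larger change with GSK126, and the sizes have no order. The 39 covered 26 named genes, which include the peptide hormones PRL and GRP, the plasma protein TTR, the dynamin DNM3, the kinase PRKCA, the amine-degrading enzymes MAOA and HNMT, the pigment cell enzyme TYRP1, the collagen COL1A2 and the cancer-testis antigens SSX1 and XAGE3. This selection from the 26 was made after their values were seen.

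PRL, which encodes prolactin, was at -0.86 and -1.22 with the combination and between -5.99 and -6.46 on the other 6 arrays, at least 8.84-fold higher than with GSK126. GRP, the gastrin-releasing peptide, was at -1.15 and -0.90 with the combination (at least 8.92-fold higher) and between -4.61 and -6.21 elsewhere. The bounds of the 39 ran from 1.03-fold to 21.9-fold. These calls were not stable. limma made 0 with DMSO replicate 2 or UNC0638 replicate 2 left out (966 and 762 at an unadjusted p under 0.05), 0 with the filter for all 4 compared arrays (603) or an intensity-dependent prior variance (835), 4 with normexp background correction and 59 with the replicate block.

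**Figure D5:**
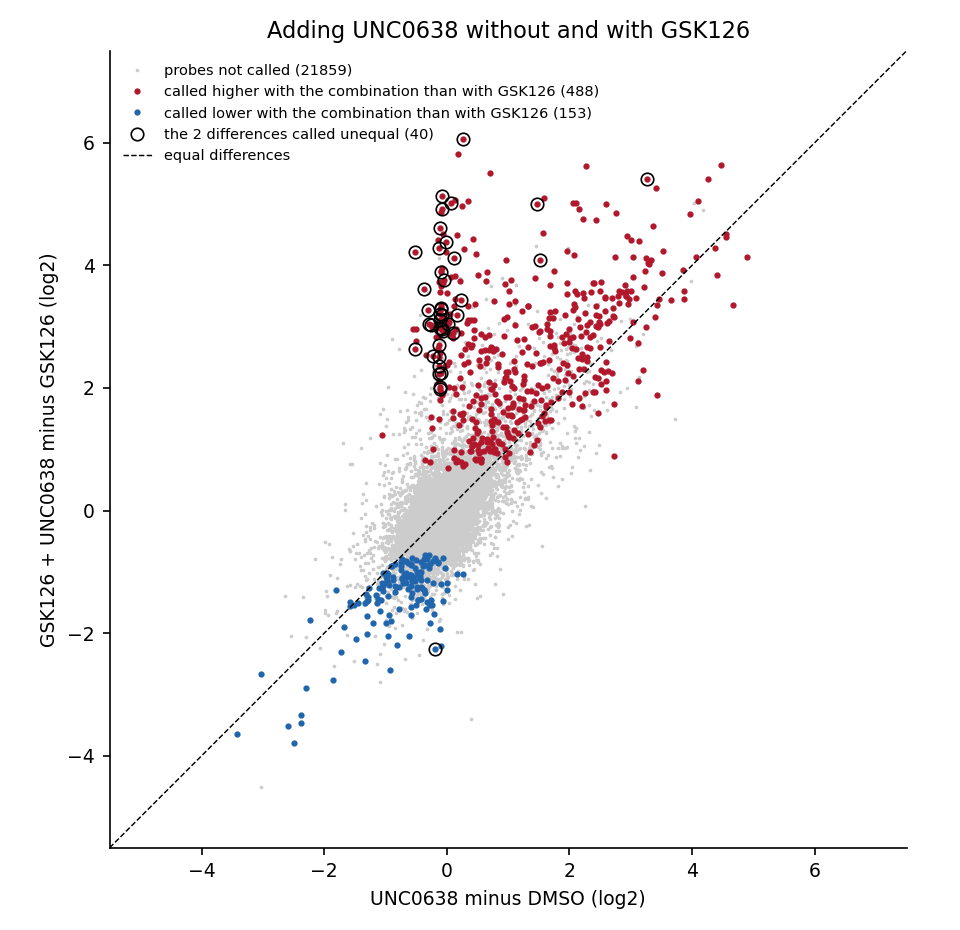
The difference between GSK126 + UNC0638 and GSK126 (vertical axis) against that between UNC0638 and DMSO (horizontal axis) for the 22500 probes tested in RPMI-8226 cells (log2). Red and blue points are the 488 rises and 153 falls, circles the 40 probes for which the 2 differences were called unequal, and most circles lie near 0 on the horizontal axis.

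In MM.1S cells most of the probes that could be compared moved in the same direction. Of the 488 rises 266 were tested in both lines, and UNC0638 on top of GSK126 gave a value above 0 for 246 of them in MM.1S, against 40.4% of all probes tested in both. limma called 186 of the 266 higher there and 2 lower, where it called 13.8% and 25.4% of all probes. Of the 104 falls tested in both, 82 were below 0 in MM.1S, 44 were called lower and 3 higher. Medians in MM.1S were 1.01 for the rises and -0.55 for the falls. Called unequal between the lines, over 20774 probes and 16 arrays, were 404 probes in the direction of RPMI-8226 (1.94%) and 231 in that of MM.1S (1.11%), of which 80 were rises and 22 falls described above. These counts ranged from 86 to 715 and from 57 to 560 when 1 array was left out, the lowest without MM.1S GSK126 replicate 1 and the highest without RPMI-8226 GSK126 replicate 2. The cell lines were on separate slides, so slide and line cannot be told apart in the levels, while each difference was taken within 1 slide.

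UBD and FCRLA also rose in MM.1S, by 4.26 and 3.68 (limma adjusted p = 0.00302 and 1.24e-04), HLA-DQA1, MS4A1 and TLR7 were called higher there from below background, and IRF4 fell by 0.72 (limma adjusted p = 0.00667). CXCL10 (-0.33), SLAMF7 (-0.27) and SLN (-0.02) were not called there. SLAMF7 was already at 5.55 and 5.71 in MM.1S with GSK126, against -1.73 and -1.88 in RPMI-8226. For IFIT1 the change was 3.02 in MM.1S (limma adjusted p = 0.00205) against 1.58 in RPMI-8226, and the difference between the lines was not called (-1.44, limma adjusted p = 0.186). The median of the interferon-stimulated list was 0.67 in MM.1S, that of G1/S genes -0.79 and that of ribosome biogenesis genes -0.75, against 0.37, -0.22 and -0.29 in RPMI-8226, and the differences between the lists' medians were not tested.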

How the data were processed

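Total RNA was amplified, labeled with 1 dye and hybridized to whole human genome arrays, and the authors deposited the scanner output of Agilent Feature Extraction (version 10.7, per the submitters' processing notes), in which a spot's intensity is on a linear scale after background subtraction. The authors also deposited a table of the series with the same intensities rounded, which was used as an alternative. Probe positions are on GRCh37.

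Control spots (4259 of 62976) and outlier spots were dropped. Each spot's log2 intensity was set relative to the array's 75th percentile and averaged per probe, and limma (version 3.58.1, R 4.3.3, lmFit and eBayes) was fitted to the 8 RPMI-8226 arrays, or to all 16 for the difference between lines, and p-values were adjusted by Benjamini-Hochberg across all probes tested. Of the 22500 probes 1 lacked an array, and no probe printed did. The methods of the study name no test for the arrays. Groups and replicate numbers came from the labels. The deviations of arrays with 1 number from their groups correlated in all 6 pairs of groups (r from 0.252 to 0.464 over 19932 probes). The numbers may thus pair the arrays, and they also follow the row of the slide. The main fit leaves this pairing out, and the replicate block is the alternative that includes it. All RPMI-8226 arrays were on 1 slide, with each treatment in its own column, so treatment and column cannot be told apart.

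A gene in a list is the tested probe with the highest mean. The members and lists were chosen with earlier results of these data known, and the lists are descriptions with no test. The genes named are the drug targets, those the study named, the 8 largest called rises and falls above background on all 4 compared arrays, the 5 largest bounds in each direction, up to 4 called members of a list (where none was called, 2 with the largest change) and cell type markers. The largest rises and falls were also required to have both combination arrays beyond both GSK126 arrays. The view of neighboring genes came later, once results were known. Some genes that these rules name are not reported here. Alternatives were quantile normalization, the percentile over detected probes, normexp (offset 50), other filters, the series table, the replicate block, an intensity-dependent prior variance, fits over 16 or 4 arrays, and each array left out with the probes kept as they were. The filter for all compared arrays does not test a probe that is below background on any of the 4, so a call there is neither kept nor lost. The fits were tested on simulated data. Precision is limited by 2 arrays per group.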

Additional observations from a re-analysis of the deposited data

Results flagged for a closer look

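For the named genes SLN, SSX1, XAGE3 and COL1A2, limma's test of the difference of differences, with against without GSK126, passed its threshold. The fitted differences were 5.79 for SLN (limma adjusted p = 0.0238), 4.74 for SSX1 (0.0209), 3.03 for XAGE3 (0.0147) and 3.33 for COL1A2 (0.0387). All 4 were below background on the 6 arrays without both drugs, so these values rest on levels that were not measured, are no bounds and do not show a larger change with GSK126. With the filter for all compared arrays limma called 0 probes in this test (603 at an unadjusted p under 0.05).

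Between the cell lines, the change with UNC0638 on top of GSK126 differed by limma's test for 13 named genes, given here as the value in RPMI-8226 less that in MM.1S. The difference was positive for SLN (6.08, limma adjusted p = 2.21e-04), SLAMF7 (4.40, 0.00121), LOC100505495 (4.0, 3.01e-05), CD3D (2.82, 0.00907), PAGE2B (2.55, 2.21e-04), CXCL10 (2.5, 0.00342), PAGE2 (2.28, 0.00627) and CD3E (2.13, 0.0438). In TEX19 (1.86, limma adjusted p = 0.0404) and EZH2 (0.99, 0.0410) it was also positive, with changes in MM.1S of -3.12 for TEX19 and -1.07 for EZH2 against -1.26 and -0.08 in RPMI-8226. It was negative for IFITM1 (-1.71, limma adjusted p = 0.0236), FCGR2C (-1.58, 0.0378) and BCL6 (-1.49, 0.0451). SLN and CD3E were below background on both RPMI-8226 GSK126 arrays, so their values have no place in this order. SLAMF7 was already at 5.55 and 5.71 in MM.1S with GSK126.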

How the results depend on the processing

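No named gene that was called changed direction. The median turned sign in at least 1 alternative for 8 of 28 lists. These were interferon gamma genes (-0.01, and up to 0.10), sensors (0.05, down to -0.02), BCL2 family genes (0.07, down to -0.02), germline genes (-0.12, up to 0.13), H3K9 methylation genes (-0.06, up to 0.04), retroviral genes (-0.0017, up to 0.25), erythroid markers (-0.10, up to 0.15) and globin genes (0.88, and -0.85 with the filter for all compared arrays). Over all genes the median went from -0.05 to 0.04 with the percentile over detected probes. Counts of probes are given as higher and lower, first for the combination against GSK126 (488 and 153), then for the change with against without GSK126 (39 and 1), then for RPMI-8226 against MM.1S (404 and 231). The replicate block gave 950 and 446, 59 and 4, and 1155 and 734. The filter for all compared arrays gave 141 and 56, 0 and 0, and 373 and 205. Without a filter the counts were 374 and 76, 6 and 0, and 343 and 354, so that the larger of the last pair changed sides. The intensity-dependent prior variance gave 553 and 256, 0 and 0, and 760 and 343. A fit over 16 arrays gave 1233 and 998, and 97 and 4, and a fit over 4 arrays 414 and 54. Normexp gave 4 and 0 for the second comparison, the percentile over detected probes 38 and 0, and quantile normalization 553 and 417 for the third. Rises were 76.1% of the calls, 84.8% with the percentile over detected probes, which moved the median difference by 0.09, 55.3% over 16 arrays and 88.5% over 4. With 1 array left out, the counts ranged from 198 to 453 and 23 to 179, from 0 to 55 and 0 to 1, and from 86 to 715 and 57 to 560. A sole remaining array of a group was then assumed to vary like the others.

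Past 2-fold were 1143 probes higher and 401 lower. These became 337 and 71 with normexp, 2208 and 1176 without a filter, 439 and 225 with the filter for all compared arrays, 2084 and 1711 at 1.5-fold and 697 and 73 at 3-fold, with 186 lower in both same-numbered pairs. With 1 array left out they were 1116 to 1318 and 401 to 758. Of 59 named probes called, 19 kept the call in every alternative that tested them. Of 42 not called, 13 were called in at least 1. The 2 arrays per group limit every count, and levels below background have no order.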

Other observations

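Of 11 S100 genes tested, S100A8 and S100A9 were called higher and 0 lower (2.48% and 0.694% of all genes). Their list had a median of 0.28, with 10 of 11 above 0. Of 21 imprinted genes 13 were above 0, with a median of 0.12. The myeloid list, with a median of 0.94 for UNC0638 added to GSK126, had a median of 1.93 for GSK126 over DMSO and 0.07 for UNC0638 over DMSO, and the T and NK list, with 0.69, had 0.21 and 0.61.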
